A study of Saccharomyces cerevisiae with 4 samples.

Results

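The genes described here are the 37 yeast genes that take up sulfate, reduce it and build it into homocysteine, cysteine, methionine and S-adenosylmethionine (SAM), together with the genes of the homoserine branch, the permeases for methionine and SAM, and 5 regulators of the pathway. They were chosen by ORF name from 6063 genes on the arrays. No measured value served as a criterion, but earlier results of these data were known when the genes were chosen. All 37 were read on both arrays of the E3 experiment, 33 on each array of the E4 experiment, and 32 on all 4 arrays.

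Budding yeast imports sulfate through plasma membrane permeases, activates it with ATP to adenosine phosphosulfate and then phosphoadenosine phosphosulfate, and reduces this to sulfite and sulfide with NADPH. Sulfide is joined to O-acetylhomoserine, a carbon chain that derives from aspartate, to give homocysteine, from which methionine, SAM and cysteine are made. The activator Met4, which is brought to DNA by Cbf1 or by Met31 and Met32, drives most of these genes, and the ubiquitin ligase that contains Met30 restrains Met4 when methionine or cysteine is plentiful. Zap1 is the activator that yeast uses when zinc is scarce, and it binds zinc-responsive elements in promoters.

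All cultures were of the wild-type strain DY1457, a haploid of genotype Matα ade6 can1 his3 leu2 trp1 ura3. In E3, transformants that expressed Zap1TC, an allele mutated so that its activation domains respond poorly to zinc, were compared with transformants holding only the plasmid pYef2. The allele was driven from pYef2 by the GAL1 promoter, which galactose switches on, and so was overexpressed beside the chromosomal ZAP1 gene. Both cultures had 20 to 24 h of growth in SD medium containing 2% galactose and 1 μM ZnCl2, a condition in which zinc is not limiting. In E4, untransformed DY1457 grown for 14 to 16 h in low zinc medium (LZM, buffered with EDTA and citrate) with 3 μM ZnCl2 was compared with the same strain in LZM with 3000 μM ZnCl2. The sources used here do not give the sulfate or methionine content of these media. Each experiment had 2 biological replicates from independent cultures, and each replicate was hybridized to 1 spotted 2-colour array. Cy5 marked the Zap1TC or zinc-limited culture and Cy3 its reference on all 4 arrays, so that an effect of the dye on a gene and an effect of the condition cannot be told apart.

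The values below are log2 ratios of Cy5 over Cy3 after background correction and normalization within each array, so that a positive value means more mRNA in Zap1TC cells (E3) or in zinc-limited cells (E4). A gene is called higher or lower where its limma p-value, adjusted over all genes by the Benjamini-Hochberg method, is under 0.05. The study's own criterion, 1.5-fold or more in the mean of the arrays and 1.4-fold or more on both of them, is given beside it and was also applied to the inverse ratio. The arrays held 10036 to 11303 usable spots, with a median Cy5 intensity of 2.06 to 2.78 times the local background. Across genes, which are not independent replicates, the replicate arrays correlated with r = 0.944 in E3 and r = 0.940 in E4. ZAP1 had log2 ratios of 6.84 and 6.47 in E3, and the zinc transporter gene ZRT1 had 6.44 and 6.84 in E4, the directions that the labels give. For the sulfur genes the SD between replicate arrays had a median of 0.07 in E3 and 0.09 in E4 on the log2 scale, and was at most 0.25 (STR3) and 0.27 (MET16).

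In cells expressing Zap1TC, most sulfur genes had lower mRNA levels. The 8 genes called higher were the permease genes SAM3, MMP1 and AGP3, the putative permease gene YPR003C, and HOM6, CYS3, MET13 and MET30. Of the 37 genes, limma called 22 lower, 8 higher and 7 neither, against 29.3% lower and 29.3% higher of the 5780 genes tested. Their median log2 ratio was −0.26, beside 0.00 over all genes tested. By the study's criterion 8 of the 37 were lower and 4 higher, against 5.35% and 7.01% of all genes. In zinc-limited wild-type cells the calls were spread over both directions. There 9 of the 32 genes tested were higher and 6 lower, against 25.7% and 24.9% of the 5129 genes tested, and the median log2 ratio was 0.01. Without E4 replicate 1 fewer of the 32 were called higher, but fewer of all genes were called higher there as well. With median centring 12 of the 32 were called higher, beside 25.9% of all genes. The study's criterion gave 3 higher and 4 lower in E4, against 4.64% and 1.93% of all genes. In these bulk cultures, fewer cells expressing a gene and less of its mRNA per cell cannot be told apart.

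**Figure D1:**
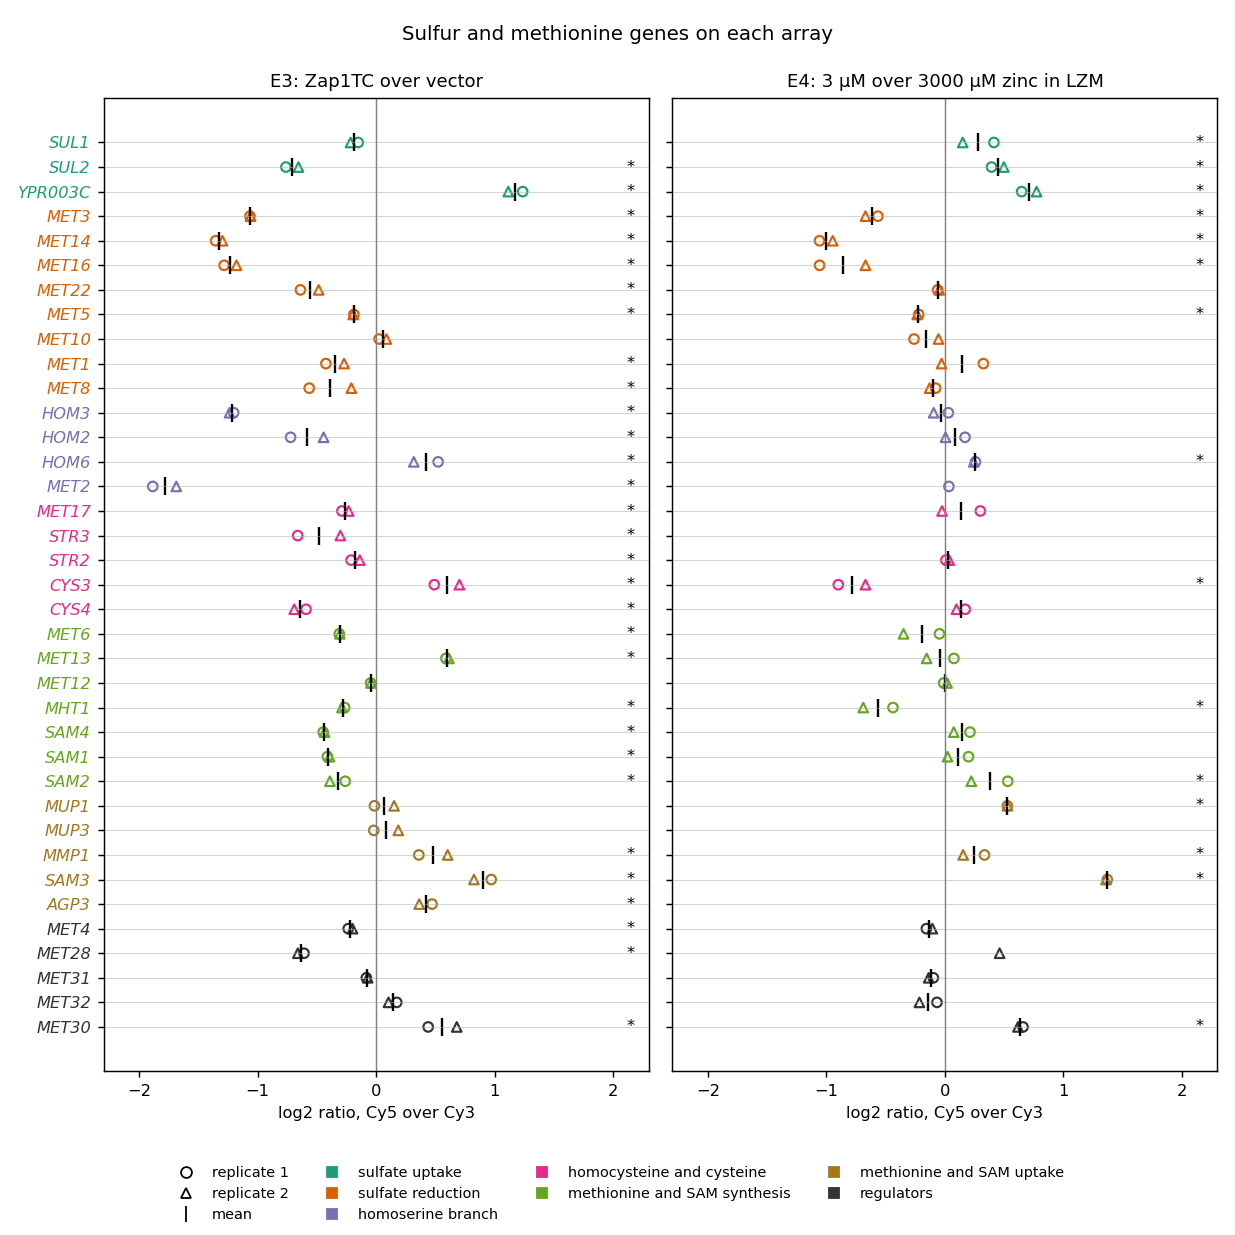
Log2 ratio of Cy5 over Cy3 (horizontal axis) of each of the 37 genes on each array, E3 on the left and E4 on the right; circles are replicate 1, triangles replicate 2, vertical bars the mean of both, and an asterisk marks a limma adjusted p under 0.05. Most genes lie left of 0 in E3, where 22 were called lower and 8 higher, whereas in E4 9 were higher and 6 lower of 32.

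The sulfate activation steps fell in both experiments. MET3 (YJR010W) encodes ATP sulfurylase, which makes adenosine phosphosulfate. Its log2 ratio was −1.06 and −1.06 on the E3 arrays and −0.57 and −0.67 on the E4 arrays. It was therefore 2.09-fold lower with Zap1TC (limma adjusted p = 3.98e-07) and 1.54-fold lower in low zinc (limma adjusted p = 3.94e-05). MET14 (YKL001C) encodes the kinase that acts next in the pathway. It had −1.35 and −1.30 in E3 and −1.06 and −0.95 in E4, so that its mRNA was 2.51-fold and 2-fold lower, with limma adjusted p-values of 1.13e-07 and 1.81e-06. MET14 had the lowest mean of the 32 genes tested in E4. MET16 (YPR167C), the gene of the reductase that turns phosphoadenosine phosphosulfate into sulfite, had −1.28 and −1.18 in E3 and −1.06 and −0.67 in E4. Its fall was 2.35-fold in E3 (limma adjusted p = 1.31e-06) and 1.82-fold in E4 (limma adjusted p = 4.69e-05). These 3 genes met the study's criterion for a fall in both experiments. MET3 did not meet it in E4 without background correction, with the deposited log2 values or without E4 replicate 2.

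The other genes of sulfate reduction changed less. MET22 (YOL064C), whose product removes the phosphoadenosine phosphate left by the reductase, had −0.64 and −0.49 in E3, a 1.48-fold fall (limma adjusted p = 3.99e-05). In E4 it had −0.06 and −0.05 and was not called. The 2 subunits of sulfite reductase are encoded by MET5 (YJR137C) and MET10 (YFR030W). MET5 was called lower in both experiments with a mean of −0.19 in E3 and −0.23 in E4, but lost its call in each when either replicate of that experiment was left out (limma adjusted p of 0.0856 and 0.086 in E3, and 0.0739 and 0.0844 in E4). MET10 was at 0.06 in E3 and −0.16 in E4 and was called in neither. MET1 and MET8, which make siroheme, the cofactor of sulfite reductase, were called lower in E3 at −0.35 and −0.39, and lost those calls without E3 replicate 1 (limma adjusted p = 0.0712 and 0.0672). In E4 the Cy5 signal of MET8 was not well above background on either array and that of MET1 on 1 array. Over the 8 genes of sulfate reduction, 7 were called lower and none higher in E3, where 29.3% of all genes were called each way, and 4 lower and none higher in E4, where 24.9% of all genes were lower and 25.7% higher.

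The genes grouped under sulfate uptake did not follow those for its reduction in E4, where all 3 were called higher, beside 25.7% of all genes. Of these 3, SUL1 lost its call under some of the alternatives given below, and YPR003C is uncharacterized. SUL2 (YLR092W) encodes a high-affinity sulfate permease. It fell with Zap1TC, with −0.76 and −0.66 on the E3 arrays (1.63-fold, limma adjusted p = 7.65e-06), and rose in low zinc, with 0.39 and 0.50 on the E4 arrays (1.36-fold, limma adjusted p = 0.000387). Its paralog SUL1 (YBR294W) had −0.15 and −0.22 in E3, just outside the threshold (limma adjusted p = 0.0517), and was called lower there under 8 of 13 alternatives, among them the deposited log2 values (limma adjusted p = 0.0157), the replicate block (limma adjusted p = 0.0343) and the E3 arrays alone (limma adjusted p = 0.0272). In E4 it had 0.41 and 0.15 (1.22-fold, limma adjusted p = 0.01). The SUL1 call in E4 rested on replicate 1, since the value was 0.15 without it. That call was also lost without background correction (limma adjusted p = 0.209) and with the deposited log2 values (0.09).

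YPR003C, whose product belongs to the sulfate permease family but is uncharacterized, rose in both experiments. It had 1.24 and 1.12 in E3 (2.26-fold, limma adjusted p = 3.21e-07) and 0.65 and 0.77 in E4 (1.64-fold, limma adjusted p = 2.58e-05). It met the study's criterion for a rise in both, though not in E4 without background correction or with the deposited log2 values. YPR003C and SAM3 are among the candidate Zap1 targets that the study chose with the help of these 4 arrays. The rises given here for both genes therefore add no evidence separate from that choice. For SAM3, but not YPR003C, the study also reported a rise by S1 nuclease protection assay, with RNA other than that hybridized to arrays.

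In the homoserine branch, which supplies the carbon chain, 3 of 4 genes were called lower and 1 higher in E3. Of all genes, 29.3% were called each way there. In E4, 1 of the 3 tested was called higher, beside 25.7% of all genes. HOM3 (YER052C) encodes aspartate kinase, the entry step shared with threonine synthesis. Its log2 ratio was −1.20 and −1.24 in E3, a 2.33-fold fall (limma adjusted p = 2.02e-07), against 0.03 and −0.10 in E4 (limma adjusted p = 0.677). HOM2 (YDR158W), the gene of the next enzyme, had −0.72 and −0.44 in E3 (1.5-fold lower, limma adjusted p = 0.00012), against 0.17 and 0.00 in E4. HOM6 (YJR139C), the gene of homoserine dehydrogenase, went the other way: it was 1.34-fold higher in E3, with 0.52 and 0.32 (limma adjusted p = 0.000405), and 1.19-fold higher in E4. The E4 call of HOM6 was lost without either E4 replicate (limma adjusted p = 0.0721 without replicate 1 and 0.0503 without replicate 2), with plain background subtraction (0.0591) and with print-tip loess (0.125).

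MET2 (YNL277W), whose product acetylates homoserine and so commits it to methionine, had the lowest mean of all 37 genes in E3. It had −1.89 and −1.69, a mean of −1.79 ± 0.14 (SD, n = 2) or a 3.45-fold fall (limma adjusted p = 1.03e-07). In E4 it was read on replicate 1 only, at 0.03, and was not tested.

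At the step where sulfide enters the carbon chain, MET17 (YLR303W, O-acetylhomoserine sulfhydrylase) had −0.29 and −0.23 in E3 and 0.30 and −0.02 in E4. Its E3 call (limma adjusted p = 0.0156) turned into a rise of 0.19 (limma adjusted p = 0.0422) when the arrays were normalized within print-tip blocks, so that no direction can be given for MET17. The interconversion of homocysteine and cysteine runs through cystathionine, and its genes split. CYS3 (YAL012W) encodes cystathionine gamma-lyase, which releases cysteine. It had 0.49 and 0.70 in E3, a 1.51-fold rise (limma adjusted p = 9.07e-05), and −0.90 and −0.67 in E4, a 1.72-fold fall (limma adjusted p = 3.94e-05). CYS3 was the single gene of the 32 called higher in E3 and lower in E4, a pair of calls that 4.09% of all genes had. It met the study's criterion in both, but in E3 not with the deposited log2 values (0.42), without background correction, with median centring or without E3 replicate 2.

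CYS4 (YGR155W), the gene of cystathionine beta-synthase, which acts just before CYS3, moved the opposite way in E3. It had −0.59 and −0.69 there, a 1.56-fold fall (limma adjusted p = 1.33e-05), and 0.17 and 0.10 in E4, which was not called (limma adjusted p = 0.0959). STR3 and STR2, which act from cysteine back to homocysteine, were called lower in E3 with means of −0.48 ± 0.25 and −0.17 ± 0.05 (SD, n = 2). The STR2 call was lost without either E3 replicate (limma adjusted p = 0.212 without replicate 1 and 0.0574 without replicate 2). STR2 was at 0.02 in E4, where STR3 was not read.

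**Figure D2:**
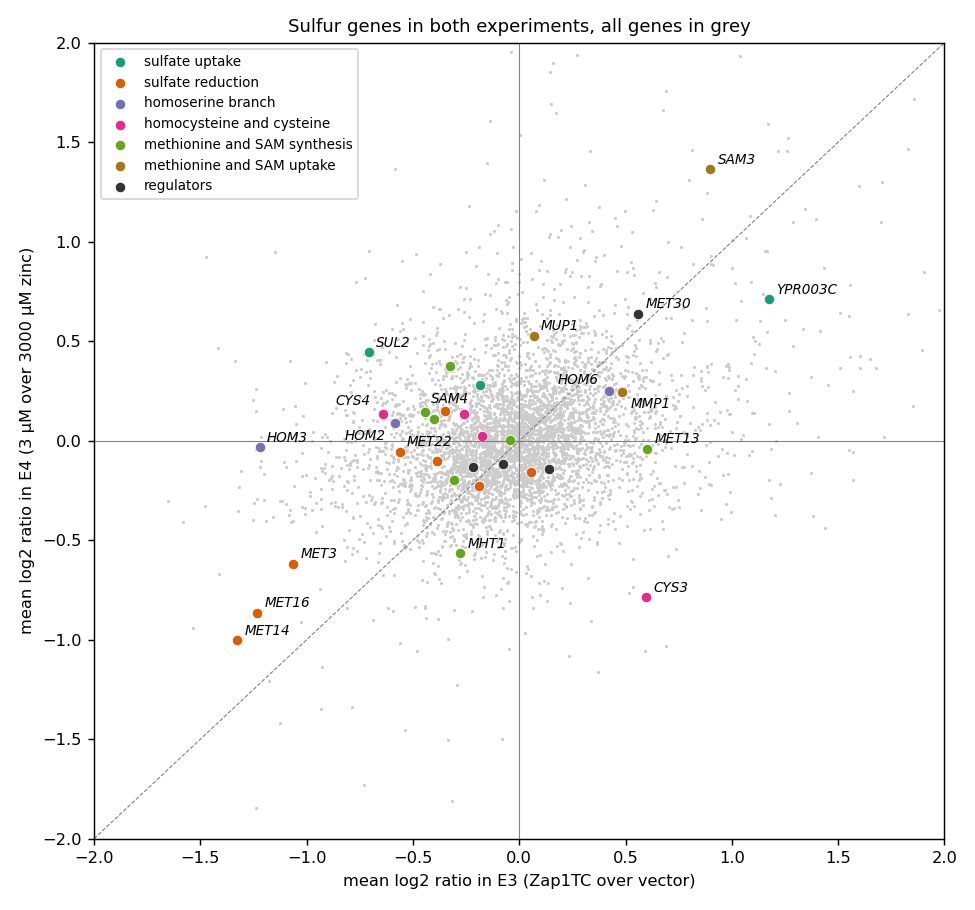
Mean log2 ratio in E3 (horizontal axis) against that in E4 (vertical axis) for the 32 sulfur genes read on all 4 arrays, coloured by role, over all 4992 genes read on all 4 arrays in grey; the dashed line marks equal values, and 37 genes lie outside the axes. MET3, MET14 and MET16 lie low on both axes, SAM3 and YPR003C high on both, and CYS3 and SUL2 in opposite corners.

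The genes that make methionine and SAM had means between −0.56 and 0.60 over both experiments, and only MET13, in E3, met the study's criterion. MET6 (YER091C), the cobalamin-independent methionine synthase and itself a zinc enzyme, had −0.31 and −0.31 in E3 and −0.05 and −0.35 in E4. The E3 call (1.24-fold lower, limma adjusted p = 0.00551) was lost with print-tip normalization (limma adjusted p = 0.77) and with plain background subtraction (limma adjusted p = 0.0577). Its E4 value lay near the threshold. MET6 was not called there (limma adjusted p = 0.053) but was called lower under 8 of 13 alternatives, among them the deposited log2 values (limma adjusted p = 0.00762), the replicate block (limma adjusted p = 0.0331) and the fit without E4 replicate 1 (limma adjusted p = 0.00769), while without E4 replicate 2 its limma adjusted p was 0.753.

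MET13 (YGL125W) and MET12 encode the methylenetetrahydrofolate reductases that supply the methyl group to Met6, MET13 the main one. MET13 rose in E3, with 0.59 and 0.61 (1.52-fold, limma adjusted p = 4.36e-05), and had 0.08 and −0.16 in E4. The rise of MET13 in E3 met the study's criterion, though not with the deposited log2 values (0.49). MET12 was at −0.05 and 0.00 and was not called in either experiment.

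The SAM synthetase genes SAM1 (YLR180W) and SAM2 (YDR502C) were both called lower in E3, 1.32-fold and 1.25-fold. In E4 SAM2 had 0.53 and 0.22 and was called higher (1.3-fold, limma adjusted p = 0.0035), a call that replicate 1 carried (limma adjusted p = 0.0952 without it), and SAM1 was at 0.11 and not called. The SAM2 call in E3 was lost without E3 replicate 2 (limma adjusted p = 0.0603) and with plain background subtraction (limma adjusted p = 0.0662).

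MHT1 and SAM4 encode the methyltransferases that make methionine from homocysteine with S-methylmethionine or SAM as the donor. SAM4 (YPL273W) had −0.45 and −0.44 in E3 (1.36-fold lower, limma adjusted p = 0.000188) and a mean of 0.14 in E4 (limma adjusted p = 0.0814). MHT1 (YLL062C) was called lower in both, at −0.28 in E3 and −0.56 ± 0.18 (SD, n = 2) in E4. Its Cy5 signal was not well above background on either E4 array. With the background correction used here, it was at least 1.31-fold lower there (limma adjusted p = 0.000191). This bound was set by the dimmest signals that were well above background. It depends on the processing: the mean was −0.27 without background correction (1.2-fold lower) and −0.27 with the deposited log2 values.

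Of the genes for import of methionine and its derivatives, 3 of 5 were called higher and none lower in E3. In E4 the 3 tested were all called higher. Of all genes, 29.3% were called each way in E3, and 25.7% higher and 24.9% lower in E4. So few genes cannot show that lower calls were rarer among them than over all genes. SAM3 (YPL274W), the high-affinity SAM permease, had the highest mean of the 32 genes in E4 and the second highest in E3. It had 0.97 and 0.83 in E3 (1.86-fold, limma adjusted p = 1.39e-06) and 1.37 and 1.36 in E4 (2.58-fold, limma adjusted p = 1.95e-07). MMP1 (YLL061W), the S-methylmethionine permease, had 0.36 and 0.60 in E3 (1.4-fold, limma adjusted p = 0.000355) and 0.33 and 0.15 in E4. Its E4 call (1.18-fold, limma adjusted p = 0.0234) was lost without E4 replicate 1 (limma adjusted p = 0.273).

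MUP1 (YGR055W), the high-affinity methionine permease, was at −0.01 and 0.15 in E3 and rose in E4, where both arrays read 0.53 (1.44-fold, limma adjusted p = 0.000155). AGP3, a broad amino acid permease, was called higher in E3 at 0.42 ± 0.08 (SD, n = 2), and MUP3, the low-affinity methionine permease, was at 0.08 and not called. Neither AGP3 nor MUP3 was read in E4.

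In the genome SAM3 lies next to SAM4, and MMP1 next to MHT1, so that each permease gene neighbours the gene of the methyltransferase that uses its substrate. In E3 both permease genes were called higher and both methyltransferase genes lower. In E4 SAM3 and MMP1 were called higher, MHT1 lower and SAM4 neither. The kind of probe spotted on the arrays is not given in the sources used here, so signal shared between the paralogs SAM1 and SAM2, SUL1 and SUL2, or MMP1 and SAM3 could not be judged.

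Among the regulators, MET30 (YIL046W), which encodes the F-box protein that restrains Met4, rose in both experiments. It had 0.44 and 0.68 in E3 (1.47-fold, limma adjusted p = 7.89e-05) and 0.66 and 0.62 in E4 (1.56-fold, limma adjusted p = 8.9e-05). MET4 (YNL103W), the activator, had −0.24 and −0.20 in E3 and −0.16 and −0.11 in E4. It was called lower in E3 at 1.16-fold (limma adjusted p = 0.0103), a call that was lost without E3 replicate 1 (limma adjusted p = 0.0802).

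MET28 (YIR017C), whose product stabilizes Met4 on DNA, had −0.61 and −0.66 in E3, a 1.55-fold fall (limma adjusted p = 2.81e-05). In E4 it was read on replicate 2 only, at 0.46, and was not tested. The DNA-binding proteins Met31 and Met32 recruit Met4. MET31 (YPL038W) had −0.08 and −0.07 in E3 and −0.10 and −0.14 in E4, and MET32 (YDR253C) had 0.17 and 0.10 in E3 and −0.07 and −0.22 in E4. Neither was called in either experiment, and the Cy5 signal of MET32 was well above background on 1 of the E4 arrays.

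The difference between the experiments was tested directly, as E4 minus E3, for the 32 genes read on all 4 arrays. Medium, carbon source, plasmid and growth time also differ between the experiments and cannot be told apart from zinc and Zap1TC in this contrast. The log2 ratio was higher in E4 than in E3 for 16 of the 32 genes and lower for 5, against 26.5% and 21.6% of the 4992 genes tested. The median difference was 0.30, beside 0.02 over all genes tested.

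HOM3 had the largest positive difference, 1.19 ± 0.09 (SE), followed by SUL2 with 1.15 ± 0.09 (SE), with limma adjusted p-values of 1.41e-05 and 1.73e-05. CYS3 had the largest in the other direction, −1.38 ± 0.11 (SE, limma adjusted p = 1.82e-05). For MET3, MET14 and MET16, which fell in both, the fall was smaller in E4 by 0.44, 0.32 and 0.37 (limma adjusted p = 0.00225, 0.013 and 0.035). The differences of MET14 and MET16 no longer passed without E4 replicate 2 (limma adjusted p = 0.0843 and 0.283), nor that of MET16 without E3 replicate 1 (limma adjusted p = 0.105). Of the 2 genes that rose in both by the study's criterion and were listed by it, SAM3 rose more in E4, by 0.47 (limma adjusted p = 0.00212), and YPR003C more in E3, with a difference of −0.47 (limma adjusted p = 0.0025, and 0.0614 with plain background subtraction). MET30 did not pass, with 0.08 ± 0.10 (SE, limma adjusted p = 0.548).

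**Figure D3:**
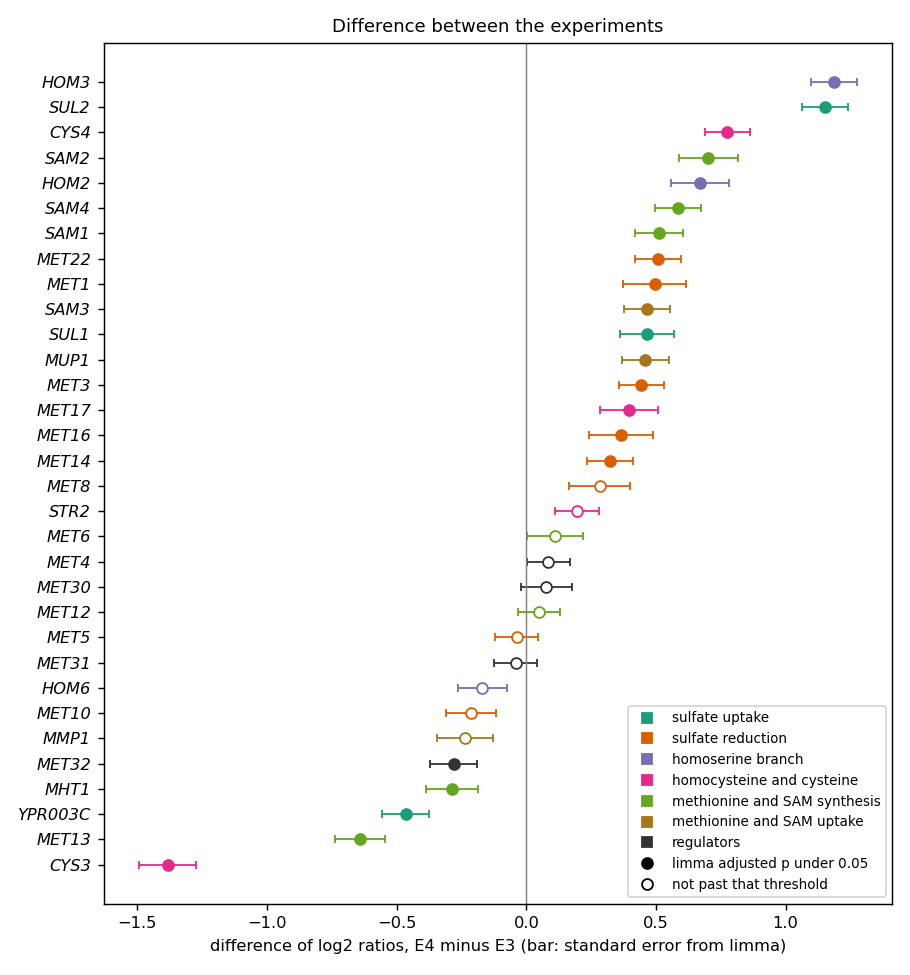
Difference of the mean log2 ratios, E4 minus E3 (horizontal axis), with its standard error from limma, for the 32 genes read on all 4 arrays, ordered by size and coloured by role; filled points have a limma adjusted p under 0.05. HOM3 (1.19) and SUL2 (1.15) lie at the top and CYS3 (−1.38) at the bottom.

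By role, 5 of 8 genes of sulfate reduction had a higher log2 ratio in E4 than in E3 and none a lower one. In sulfate uptake 2 of 3 were higher and 1 lower, and in methionine and SAM synthesis 3 of 7 were higher and 2 lower. Over all genes tested these shares were 26.5% and 21.6%. With both experiments side by side, 12 genes were called lower in E3 and not called in E4, among them HOM3, HOM2, CYS4, SAM1 and SAM4, beside 15.2% of the 4992 genes tested in both. MET6 and MET17 are among the 12, with the dependence on processing given above. So are MET1, MET8, STR2 and MET4, whose E3 calls depend on single replicates. For MET8, STR2, MET6 and MET4 the difference between the experiments was itself not called (limma adjusted p = 0.0722, 0.081, 0.425 and 0.424). The 5 genes called higher in both were YPR003C, HOM6, MMP1, SAM3 and MET30, and the 5 called lower in both were MET3, MET14, MET16, MET5 and MHT1, beside 11.1% of all genes for each of these pairs of calls. The calls of HOM6 and MMP1 in E4, and of MET5, depend on single replicates, as given above. SUL2 and SAM2 were called lower in E3 and higher in E4, beside 5.87% of all genes, SAM2 with the losses given above. MET10, MET12, MET31 and MET32 were called in neither.

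Neighbouring sulfur pathways were read against the same shares of all genes, 29.3% called each way in E3 and 25.7% higher and 24.9% lower in E4. Among 11 genes of sulfur scavenging and efflux, 5 were called higher and 3 lower in E3, and 4 higher and 1 lower in E4. LAP3 (YNL239W), a cysteine protease that also hydrolyses homocysteine thiolactone, had 1.73 and 1.68 in E3 and 1.27 and 1.33 in E4. The study had listed LAP3 as a candidate Zap1 target partly from the E3 arrays, and also reported its rise by S1 nuclease protection assay. OPT2 (YPR194C), an oligopeptide transporter linked to glutathione, had 1.15 and 1.15 in E3 (2.22-fold, limma adjusted p = 2.6e-07) and 0.68 and 0.79 in E4 (1.67-fold, limma adjusted p = 1.31e-05).

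SSU1 (YPL092W), the plasma membrane pump that exports sulfite, rose in E3 with 0.89 and 0.98 (1.91-fold, limma adjusted p = 1.09e-06), and had 0.14 and 0.04 in E4 (limma adjusted p = 0.257). YCT1 (YLL055W), a cysteine transporter, had −0.44 and −0.46 in E3 (1.37-fold lower, limma adjusted p = 0.000107) and 0.61 and 0.58 in E4 (limma adjusted p = 4.07e-05). Its Cy3 signal was well above background on 1 of the 2 E4 arrays, so the size of the rise in E4 is uncertain.

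Among 9 glutathione genes, 3 were called higher and 3 lower in each experiment, near those shares. GSH2 (YOL049W), glutathione synthetase, had −0.54 and −0.51 in E4, and ECM38 (YLR299W), the vacuolar gamma-glutamyltranspeptidase, 0.49 and 0.54. Of the genes for glutathione breakdown in the cytosol, DUG3 (YNL191W) was lower in both, with −0.85 and −0.59 in E3 and −0.49 and −0.69 in E4, and DUG1 (YFR044C) was higher in E3, with 0.54 and 0.56.

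Among 11 genes of the methyl cycle and methionine salvage, 5 were called higher and 5 lower in E3, and 4 and 4 in E4, beside the same shares. SHM2 (YLR058C), which charges folate with the carbon unit that Met13 reduces, had 0.60 and 0.90 in E3 (1.68-fold, limma adjusted p = 2.23e-05). Of the 6 genes whose products work with the pathway's regulators, GCN4 (YEL009C), the general activator of amino acid synthesis, had the highest mean in E4. It had 1.11 and 0.94 there (2.04-fold, limma adjusted p = 7.22e-06) against 0.28 and 0.01 in E3. In the threonine branch, which shares HOM3, HOM2 and HOM6, THR1 was called higher in E3 at 0.52 and lower in E4 at −0.34, the same pair of directions as CYS3, and THR4 was called in neither.

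Most directions held under other ways of processing the arrays. MET14 stayed between −1.54 and −1.25 in E3 and between −1.10 and −0.92 in E4, and HOM3 between −1.40 and −1.17 in E3. SAM3 ranged from 1.08 to 1.76 in E4, where the values without background correction were the smaller ones. The widest range was that of MHT1 in E4, from −1.95 to −0.27, and MET17 in E3 was the single gene with a call in E3 or E4 whose direction turned.

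**Figure D4:**
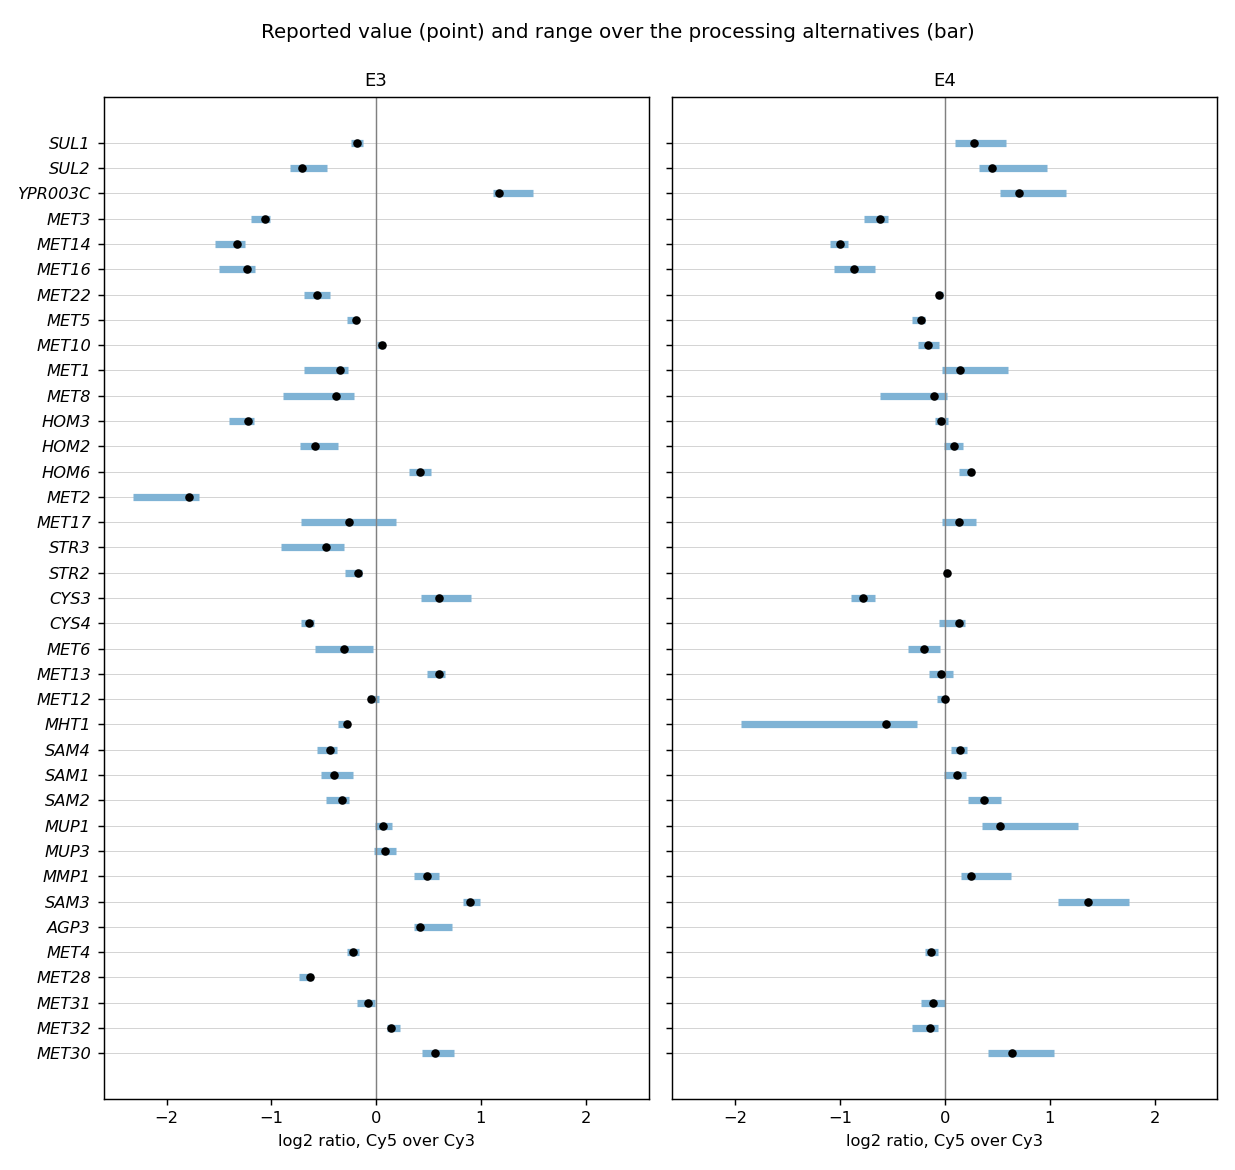
Reported mean log2 ratio (black point, horizontal axis) of each gene in E3 (left) and E4 (right), with the range over the processing alternatives and the left-out replicates (blue bar). The bar of MET17 crosses 0 in E3, and that of MHT1 in E4 reaches −1.95.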

How the data were processed

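The data are from 4 arrays, 2 for E3 and 2 for E4, grouped from the sample labels. The deposited scanner tables give each spot's mean intensity and local background intensity per dye, as the authors scanned them, with flagged spots left out. The authors also deposited log2 ratios, normalized by LOWESS within each slide without background subtraction, with column medians of −0.0211, −0.0208, −0.0201 and −0.0182; these served as an alternative. Here background was corrected by normexp (offset 50), a loess curve (span 0.3) was fitted within each array, and each gene's spots were averaged as log2 ratios, with limma 3.58.1 in R 4.3.3. The fit had 1 coefficient per experiment over the 4 arrays, so both experiments share an estimate of the spread, and it was tested on simulated data. Tests were two-sided. A signal was well above background where it exceeded the local background by 2.6 SD of the array's local backgrounds, as 85.5% to 97.7% of spots did in Cy5. The number of arrays limits the precision.

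All 37 genes matched the reference gene table. Values on every array are given for genes called by limma whose 2 arrays of an experiment both moved 1.4-fold or more in the same direction, for the regulators and for the study's listed targets, and for further genes chosen after their values were seen. The genes and the lists of neighbouring pathways were chosen with earlier results of these data known.

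Alternatives were no background correction, plain subtraction, loess within print-tip blocks, median centring, the authors' log2 values, dim genes left out, each replicate left out, a separate fit per experiment, a block for the replicate number, a robust prior with an intensity trend, and, for the study's criterion, a mean threshold of 2-fold or the geometric mean.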

Additional observations from a re-analysis of the deposited data

Results flagged for a closer look

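For 21 of the 32 genes read on all 4 arrays, the log2 ratio differed between E4 and E3 by limma's contrast of the experiments, at an adjusted p under 0.05 over 4992 genes. The contrast also compares the media, the carbon sources and the plasmid. Of the sulfate uptake and reduction genes, the difference was 0.47 for SUL1, 1.15 for SUL2, −0.47 for YPR003C, 0.44 for MET3, 0.32 for MET14, 0.37 for MET16, 0.51 for MET22 and 0.49 for MET1. In the homoserine branch it was 1.19 for HOM3 and 0.67 for HOM2. Of the genes around homocysteine and cysteine, it was 0.40 for MET17, −1.38 for CYS3 and 0.78 for CYS4. Of the genes of methionine and SAM synthesis, it was −0.64 for MET13, −0.29 for MHT1, 0.58 for SAM4, 0.51 for SAM1 and 0.70 for SAM2. For the permease genes MUP1 and SAM3 it was 0.46 and 0.47, and for the regulator MET32 it was −0.28. In E4 the Cy5 signal of MHT1 was well above background on neither array and that of MET1 and MET32 on 1, so the sizes of these 3 differences are uncertain. A left-out array ended 5 of these calls: those of MET14 (limma adjusted p = 0.0843) and MET16 (0.283) without E4 replicate 2, that of MET16 also without E3 replicate 1 (0.105), and that of MET17 without E4 replicate 1 (0.132). The other two were MHT1, without E3 replicate 1, E3 replicate 2 or E4 replicate 2 (limma adjusted p = 0.0945, 0.0666 and 0.312), and MET32, without E3 replicate 1 or E4 replicate 2 (0.0995 and 0.188). Plain background subtraction ended those of YPR003C, MET1, MET16 and MET17 (limma adjusted p = 0.0614, 0.0621, 0.0707 and 0.0842). The calls of MHT1 and MET32 were also lost without background correction and with the deposited log2 values. That of MET32 was lost with median centring too, and that of MHT1 with print-tip loess.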

How the results depend on the processing

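The counts of sulfur genes called in E3 stayed between 8 and 9 higher and between 16 and 23 lower under every alternative run. Leaving out each replicate in turn gave 8 to 8 higher and 16 to 23 lower in E3, 5 to 10 higher and 6 to 7 lower in E4, and 14 to 17 higher and 4 to 6 lower in the difference. The lowest count of higher genes in E4 was that without E4 replicate 1. Leaving out a replicate of an experiment also lowered the share of all genes called in it, in both directions. The same held for the difference, so these counts alone do not show shifts particular to the sulfur genes. With median centring 12 genes were called higher in E4, in place of 9, beside 25.9% of all genes. The genes lower in E4 than in E3 numbered 3, in place of 5, without background correction, with the deposited log2 values and with dim genes left out. Of all genes, 22.6%, 21.3% and 19.6% were lower in these settings, and 21.6% in the main fit. By the study's criterion, a mean of at least 2-fold left 1 higher and 5 lower in E3 and 1 higher and 1 lower in E4. For the same criterion the deposited values gave 2 higher in E3, in place of 4, and 1 higher in E4, in place of 3. No background correction gave 1 and plain subtraction 5 higher in E4. The causes of these shifts were not tested.

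With print-tip loess MET17 turned to 0.19 in E3 and its difference to −0.15. The difference of MET6, not called at 0.11 in the main fit, turned to −0.29 with print-tip loess. With the deposited log2 values it was called in the other direction, at 0.27. The difference of MHT1, a dim gene, turned to 0.016 without background correction and 0.044 with the deposited values. With the replicate number as a block (replicate block) the calls were 8 higher and 23 lower in E3, 9 and 7 in E4, and 17 and 5 in the difference. Over all genes the shares were 29.4% and 29.4% in E3, 25.8% and 24.8% in E4, and 26.9% and 21.9% in the difference. Same-numbered arrays of E3 and E4 did not deviate together (r = −0.0738 over 4992 genes), so the numbers were not taken as pairs. The fit on 2 arrays alone could not be made for the difference, and the settings of the fit do not enter the study's criterion. Promoter motifs were not analysed here.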
